A study of Mus musculus with 6 samples.

Results

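The genes described here are 10 components and direct outputs of the circadian clock, *Clock*, *Arntl*, *Npas2*, *Per1*, *Per2*, *Per3*, *Cry1*, *Nr1d1*, *Nr1d2* and *Dbp*. They were taken by symbol from the 22611 genes of the deposited expression table. All 10 were found there, and all 10 passed the filter of a mean above 1 FPKM that 10596 genes passed. FPKM counts the fragments assigned to a gene relative to transcript length and to all mapped fragments, so levels can be compared between genes. The samples were the duodenal epithelium of 3 WT mice and 3 *Esrra*-/- littermates, and each mouse gave 1 RNA-seq library. The *Esrra*-/- mice carry a germline null allele of the estrogen-related receptor α gene, so the receptor is missing from every tissue and not from the intestine alone. Both genotypes had received a high-fat diet, over approximately 8 weeks, and males and females were used. The colony also carries the *Villin-Cre*ERT2 transgene, and whether these 6 mice had inherited it is not given in the sources used here. The epithelium was released from the opened duodenum with 3 mM EDTA over 35 min and pelleted for RNA. The labels name no separation of crypts from villi for these samples, and the study's methods describe collection both in whole and as crypts and villi apart. Neither the age of the mice nor the hour at which they were killed is given in the sources used here.

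The circadian clock is a transcriptional feedback loop that runs in nearly every cell. ARNTL, also called BMAL1, pairs with CLOCK or with its relative NPAS2 and activates genes through E-boxes, among them the Period and Cryptochrome genes, whose proteins then inhibit that pair. In a second loop the nuclear receptors NR1D1 and NR1D2, also called REV-ERBα and REV-ERBβ, repress *Arntl*, *Clock* and *Npas2*, so that the activators and the E-box genes peak at opposite times of day. DBP is a transcription factor of the PAR bZIP family that is itself driven through E-boxes and activates genes through D-boxes. In the intestine the clock is set largely by the time of feeding, and nutrient transporters and cell division follow a daily rhythm.

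The promoters of 9 of the 10 genes were found in the RefSeq table used (GRCm38.p6), and that of *Per2* was not. The 250 bases before the start site were searched on both strands for the E-box CACGTG, the D-boxes TTATGTAA and TTATGCAA, the cyclic AMP response element TGACGTCA and the nuclear receptor core AGGTCA. They were also searched for AAGGTCA, the core of the motif that the receptor encoded by *Esrra* binds, in which the previous motif is contained. The stretches below hold a match and are shown because they carry letters known to bind clock factors or nuclear receptors, with the matches in capitals. That of *Arntl* holds none of these letters and is shown for comparison. Those of *Npas2*, *Nr1d1* and *Dbp*, which are not printed, hold none either. Where several start sites were listed, the one nearest the chromosome's start is given. On GRCm38.p6 they are chr11:69098699-69098948 (plus strand) for *Per1*, chr4:151044666-151044915 (minus strand) for *Per3*, chr10:85185055-85185304 (minus strand) for *Cry1*, chr14:18239107-18239356 (minus strand) for *Nr1d2* and chr7:113207215-113207464 (plus strand) for *Arntl*.
Per1: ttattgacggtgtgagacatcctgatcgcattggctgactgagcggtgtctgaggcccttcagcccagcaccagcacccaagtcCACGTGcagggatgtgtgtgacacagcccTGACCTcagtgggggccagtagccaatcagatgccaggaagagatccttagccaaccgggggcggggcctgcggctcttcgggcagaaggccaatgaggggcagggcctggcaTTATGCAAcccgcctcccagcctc
Per3: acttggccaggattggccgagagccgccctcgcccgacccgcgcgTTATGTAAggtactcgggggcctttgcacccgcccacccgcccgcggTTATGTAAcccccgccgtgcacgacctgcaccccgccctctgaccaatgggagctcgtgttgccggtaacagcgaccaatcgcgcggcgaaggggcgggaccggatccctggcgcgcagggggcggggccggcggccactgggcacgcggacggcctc
Cry1: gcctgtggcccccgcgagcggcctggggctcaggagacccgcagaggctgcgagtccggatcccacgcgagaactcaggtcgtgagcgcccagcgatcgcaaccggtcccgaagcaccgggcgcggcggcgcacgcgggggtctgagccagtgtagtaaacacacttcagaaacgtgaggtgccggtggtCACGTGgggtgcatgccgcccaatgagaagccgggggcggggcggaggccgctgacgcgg
Nr1d2: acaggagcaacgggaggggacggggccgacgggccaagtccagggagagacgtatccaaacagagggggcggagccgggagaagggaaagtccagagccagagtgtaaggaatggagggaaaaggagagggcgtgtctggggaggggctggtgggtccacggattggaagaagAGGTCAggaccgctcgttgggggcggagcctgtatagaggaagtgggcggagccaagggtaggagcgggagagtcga
Arntl: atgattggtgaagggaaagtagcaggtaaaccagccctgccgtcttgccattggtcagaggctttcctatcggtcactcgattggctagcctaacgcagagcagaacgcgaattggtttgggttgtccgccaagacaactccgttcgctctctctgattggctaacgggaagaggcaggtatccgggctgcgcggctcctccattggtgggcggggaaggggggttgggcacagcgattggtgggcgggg

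*Per1* holds an E-box at position −166 from its start site, an AGGTCA core on the opposite strand at −137 and a D-box at −24. *Per3* holds 2 copies of the D-box TTATGTAA, at −205 and −158, and *Cry1* an E-box at −60. *Nr1d2* holds AGGTCA at −77, and the promoter of *Clock* nearest the chromosome's start, which is not printed, holds it on the opposite strand at −119. The E-box is held by 2 of the 13 promoters of these genes, and by 6.02% of the 32851 promoters of the table. The shares of all promoters are 0.819% for TTATGTAA, 0.694% for TTATGCAA, 1.55% for TGACGTCA and 14.0% for AGGTCA. The longer motif AAGGTCA, which 4.08% of all promoters hold, is in none of the 13. These are matches of letters in a short window and not measured binding sites.

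Expression was given only as FPKM, from which the depth of each library cannot be read, and the study's methods state 1 nominal read number for the samples together. The precision of each value therefore rests on the spread between mice. *Esrra* itself was at 49.4, 73.5 and 104 FPKM in the WT mice and at 10.4, 9.42 and 8.72 FPKM in the *Esrra*-/- mice, so the genotypes did not overlap and the labels matched the targeted gene. The summed FPKM of 4 genes of chromosome Y was 27.3 to 46.7 in replicates 1 and 2 of both genotypes and 0.0487 and 0.222 in WT replicate 3 and *Esrra*-/- replicate 3. Of 6 epithelial markers all were expressed, with a sum of 3809 to 5531 FPKM over the 6 libraries, led by *Krt8*. Markers of other tissues were low. The sum of 7 immune markers, led by *Cd8a*, was 18.8 to 32.1 FPKM, that of 6 mesenchymal and muscle markers, led by *Vim*, was 2.17 to 5.25 FPKM, and that of 4 pancreatic acinar markers, of which 3 were at 0 throughout and *Cela1* was not, was 2.31 to 3.56 FPKM. For 2 endothelial markers, led by *Pecam1*, it was 0.125 to 0.359 FPKM, and for 4 markers of enteric neurons and glia 0.207 to 0.490 FPKM.

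Among the activators, *Arntl* was at 6.402, 10.9 and 2.75 FPKM in WT (replicates 1 to 3, the order kept for every gene) and at 6.22, 19.2 and 3.79 FPKM in *Esrra*-/-. Replicate 2 was the highest and replicate 3 the lowest in both genotypes, and the genotypes overlapped. *Npas2* was at 7.94, 18.3 and 8.19 FPKM in WT and at 10.7, 25.2 and 11.1 FPKM in *Esrra*-/-. Here too replicate 2 was the highest of each genotype, and the other 2 mice of a genotype lay close together. *Clock*, which encodes the partner of ARNTL and is known to oscillate little in most tissues, was at 8.33, 9.56 and 5.54 FPKM in WT and at 8.29, 9.03 and 7.66 FPKM in *Esrra*-/-. It had the same order of mice as *Arntl* over a narrower range, and its genotypes overlapped.

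The Period genes encode the inhibitors that build up in the course of the day. *Per1* was at 2.36, 2.34 and 4.75 FPKM in WT and at 1.88, 1.49 and 9.004 FPKM in *Esrra*-/-. *Per2* was at 4.36, 1.70 and 7.18 FPKM in WT and at 6.05, 1.499 and 7.25 FPKM in *Esrra*-/-. *Per3* was at 1.28, 0.651 and 3.89 FPKM in WT and at 1.37, 0.467 and 2.40 FPKM in *Esrra*-/-. For these 3 genes replicate 3 was the highest and replicate 2 the lowest of each genotype, the reverse of *Arntl*, and the genotypes overlapped. *Cry1*, a Cryptochrome that joins the Period proteins in the inhibitory complex and peaks later than they do, departed from both patterns. It was at 3.80, 3.94 and 4.17 FPKM in WT and at 4.92, 7.85 and 4.81 FPKM in *Esrra*-/-, so that all *Esrra*-/- mice lay above all WT mice, with *Esrra*-/- replicate 2 far above the rest.

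*Nr1d1*, the repressor of *Arntl*, was at 58.5, 42.9 and 113 FPKM in WT and at 66.4, 21.1 and 117 FPKM in *Esrra*-/-. Its close relative *Nr1d2* was at 14.2, 14.3 and 21.7 FPKM in WT and at 15.2, 5.44 and 23.3 FPKM in *Esrra*-/-. Both were highest in replicate 3 of each genotype and lowest by far in *Esrra*-/- replicate 2. On mm9, *Nr1d1* lies on the minus strand of chromosome 11 from 98629246 to 98636647 and shares 1075 bases with the end of *Thra*, the thyroid hormone receptor α gene on the plus strand. Fragments of the shared stretch could be given to either gene, since the library kit named in the labels does not mark strand. *Thra* was at 32.0 to 38.9 FPKM over the 6 libraries and did not follow *Nr1d1*. *Dbp* varied most of the 10 genes. It was at 14.1, 5.64 and 131 FPKM in WT and at 20.2, 0.521 and 61.6 FPKM in *Esrra*-/-, a 23.3-fold range among the WT mice and a 118-fold range among the *Esrra*-/- mice. Again replicate 3 was the highest and replicate 2 the lowest of each genotype, and the genotypes overlapped.

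**Figure D1:**
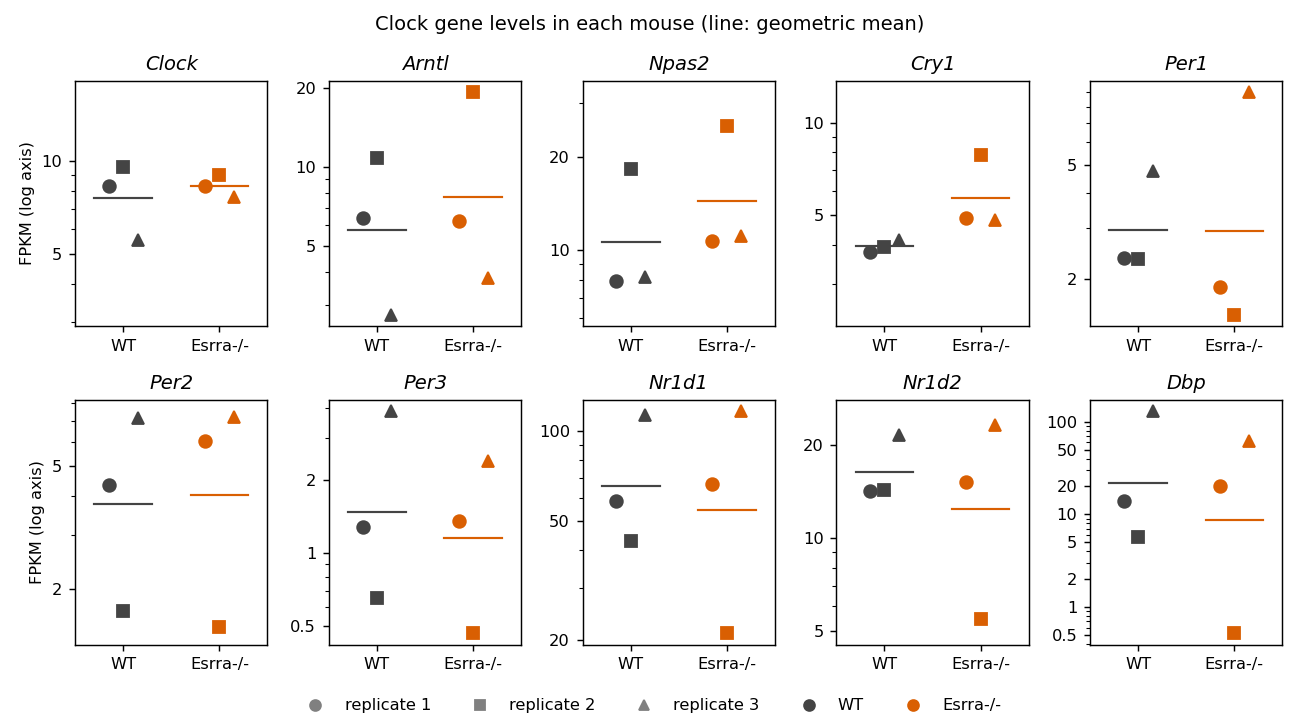
FPKM of the 10 clock genes (log axes, which differ between panels) in each of the 6 mice, with replicate numbers as symbols and the geometric mean of each genotype as a line. Replicate 2 is the highest mouse of its genotype for *Clock*, *Arntl* and *Npas2*, and replicate 3 the highest for *Per1*, *Per2*, *Per3*, *Nr1d1*, *Nr1d2* and *Dbp*, and only for *Cry1* do the genotypes not overlap.

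By mean level in WT the order was *Nr1d1* (71.5 ± 36.8 FPKM, SD, n = 3 mice), *Dbp* (50.3 ± 70.2), *Nr1d2* (16.7 ± 4.27), *Npas2* (11.5 ± 5.90), *Clock* (7.81 ± 2.06), *Arntl* (6.67 ± 4.06), *Per2* (4.41 ± 2.74), *Cry1* (3.97 ± 0.187), *Per1* (3.15 ± 1.39) and *Per3* (1.94 ± 1.72). The ranges of every pair of neighbours in this order overlapped between mice. Within each WT mouse only the last step, *Per1* above *Per3*, held in all 3 mice. The repressor *Nr1d1* exceeded its target *Arntl* in every library, by 3.95 to 41.1 times in WT and by 1.10 to 30.9 times in *Esrra*-/-. The ratio of *Dbp* to *Arntl* ran from 0.520 to 47.8 in WT and from 0.0271 to 16.3 in *Esrra*-/-.

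Apart from *Cry1*, the activators and the genes they drive thus mostly separated the mice in opposite ways in both genotypes. The textbook grouping was used, with *Arntl*, *Clock* and *Npas2* as the positive arm and *Per1*, *Per2*, *Per3*, *Nr1d1*, *Nr1d2* and *Dbp* as the negative arm, and *Cry1* was kept out of both. All 3 genes of the positive arm were highest in replicate 2 of WT and all 3 in replicate 2 of *Esrra*-/-. *Arntl* and *Clock* were lowest in replicate 3 of each genotype, but *Npas2* was lowest in replicate 1 of each. All 6 genes of the negative arm were highest in replicate 3 of WT and all 6 in replicate 3 of *Esrra*-/-, and 5 of 6 in WT and 6 of 6 in *Esrra*-/- were lowest in replicate 2. The exception was *Nr1d2* in WT. In WT both *Nr1d2* and *Per1* had nearly equal values in replicates 1 and 2. The mean deviation of the negative arm from each gene's own mean, on the log2(FPKM + 0.1) scale, took the values −0.05, −0.70 and 1.29 over the WT mice and 0.13, −1.84 and 1.17 over the *Esrra*-/- mice. That of the positive arm was −0.21, 0.51 and −0.78 in WT and −0.08, 0.91 and −0.33 in *Esrra*-/-. In replicate 1 of each genotype both arms stood near their means, with differences between the arms of 0.16 and 0.21. The libraries at the ends were *Esrra*-/- replicate 2, where the negative arm lay 2.74 below the positive arm, and WT replicate 3, where it lay 2.07 above.

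**Figure D2:**
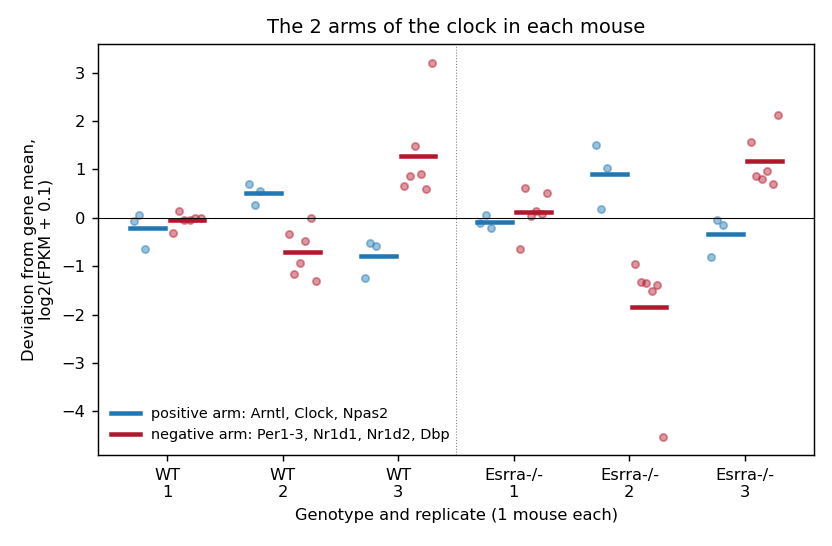
Deviation of each clock gene from its own mean over the 6 mice, in log2(FPKM + 0.1), for the positive arm (blue) and the negative arm (red). Points are genes and bars are arm means. The negative arm stands above the positive arm in replicate 3 of both genotypes and below it in replicate 2 of both, with arm differences from −2.74 to 2.07.

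Other measurements moved with this order of mice. The sum of 6 crypt markers, led by *Olfm4*, was at 253, 309.9 and 193 FPKM over the WT mice. Over the *Esrra*-/- mice it was at 158, 232 and 95.7 FPKM. It was thus highest in replicate 2 and lowest in replicate 3 of each genotype, as *Arntl* was. Singly, *Ascl2* and *Pcna* were instead highest in replicate 3 and lowest in replicate 1 of WT. *Pcna* was lowest in replicate 1 of *Esrra*-/- as well. The sum of 7 villus enterocyte markers, led by *Apoa4*, was highest in replicate 3, with 60159 FPKM in WT and 61326 FPKM in *Esrra*-/-. It was lowest in replicate 2, with 35934 FPKM in WT and 45738 FPKM in *Esrra*-/-. Singly, *Sis* was highest in WT replicate 1, and *Apoa4* and *Lct* were highest of their genotype in *Esrra*-/- replicate 1. The sum of 4 Paneth cell markers, led by *Defa24*, was 7057 to 15063 FPKM in WT and 1467 to 6453 FPKM in *Esrra*-/-, again highest in replicate 2 and lowest in replicate 3 of each. None of the 6 crypt, 7 villus or 4 Paneth markers was at 0 in all libraries. Taken singly, none of these 17 genes had an r with *Dbp* above 0.8 or below −0.8, while the enterocyte markers *Alpi* (−0.80) and *Sis* (−0.81) passed that size in their r with *Arntl*. Of the other marker lists, the epithelial gene *Cdh1* had an r with *Dbp* of −0.97 and the tuft cell gene *Trpm5* one of 0.83, and *Krt20* (−0.82) and the immune gene *Ptprc* (0.81) passed 0.8 in size with *Arntl*. The sum of the 6 epithelial markers was itself highest in replicate 3 and lowest in replicate 2 of each genotype, at 3824, 3809 and 4889 FPKM in WT and at 4343, 3901 and 5531 FPKM in *Esrra*-/-. Replicate 3 of each genotype was also the mouse without Y-linked transcripts above a trace. Of the genes of all marker lists, *Lyz1* and *Defa24* were called between the genotypes, both lower in *Esrra*-/-. Their log2 fold changes were −1.50 (limma adjusted p = 0.436) and −1.48 (limma adjusted p = 0.422). Markers tested were 6 epithelial, 7 villus, 6 crypt, 5 goblet, 4 Paneth, 6 enteroendocrine, 2 tuft, 5 immune, 1 mesenchymal and 1 acinar. Of all genes tested, 4.63% were called. The part of cell composition, of sex and of the hour of collection in the clock gene levels was not tested, and in bulk epithelium fewer cells of a type and less RNA per cell cannot be told apart. The sum of 3 tuft cell markers, led by *Trpm5* (3.81 to 7.02 FPKM), was highest in replicate 3 and lowest in replicate 2 of each genotype. The sums of 5 goblet markers, led by *Tff3* (2602 to 3055 FPKM), and of 6 enteroendocrine markers, led by *Gip* (257 to 405 FPKM), did not keep either order in both genotypes. The immune sum was highest in replicate 2 of each genotype, at 31.2 FPKM in WT and 32.1 FPKM in *Esrra*-/-, and so was the mesenchymal and muscle sum, at 4.09 and 5.25 FPKM.

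Across the 6 mice, pairs of clock genes were strongly related. *Arntl* and *Dbp* had a Pearson r of −0.99 (exact permutation test, p = 0.00139, adjusted p = 0.017 over 45 pairs) and a Spearman rho of −1 (exact permutation test, p = 0.00278, the smallest that ranks of 6 mice allow, adjusted p = 0.0312). Without the 2 mice farthest from the median of *Arntl* the r was −0.99. *Arntl* and *Nr1d1* had r = −0.98 (exact permutation test, adjusted p = 0.017) and rho = −0.94 (exact permutation test, adjusted p = 0.050), with r = −0.97 without the farthest 2 mice. *Nr1d1* and *Dbp* had r = 0.99 (exact permutation test, adjusted p = 0.017) and rho = 0.94 (exact permutation test, adjusted p = 0.050). Of the 45 pairs, 15 had an adjusted p under 0.05 by r and 4 by rho. The 18 pairs of a positive with a negative arm gene all had a negative r, from −0.99 to −0.47, and the 15 pairs within the negative arm all had a positive r, from 0.67 to 0.99. After the mean of each genotype was removed, these ranges were −0.99 to −0.50 and 0.67 to 0.99. *Cry1* had an r from 0.26 to 0.70 with the activators and from −0.77 to −0.34 with the negative arm genes. None of the 9 pairs of *Cry1*, of *Npas2* or of *Per1* had an adjusted p under 0.05. Some relations rested on the mice at the ends. Without the farthest 2 mice the r of *Npas2* with *Dbp* went from −0.85 to 0.00. Those of *Npas2* with *Per1*, *Per2*, *Nr1d1* and *Nr1d2* turned positive (0.25 to 0.50), and that of *Arntl* with *Cry1* went from 0.60 to −0.63. The r of *Cry1* with *Per2*, *Per3*, *Nr1d1*, *Nr1d2* and *Dbp* turned positive as well (0.24 to 0.65). With *Per1* it went from −0.34 to −0.99. The r of *Clock* with *Npas2* was 0.65 with all mice and 0.67 without the farthest 2. All 45 relations share the same 6 libraries.

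**Figure D3:**
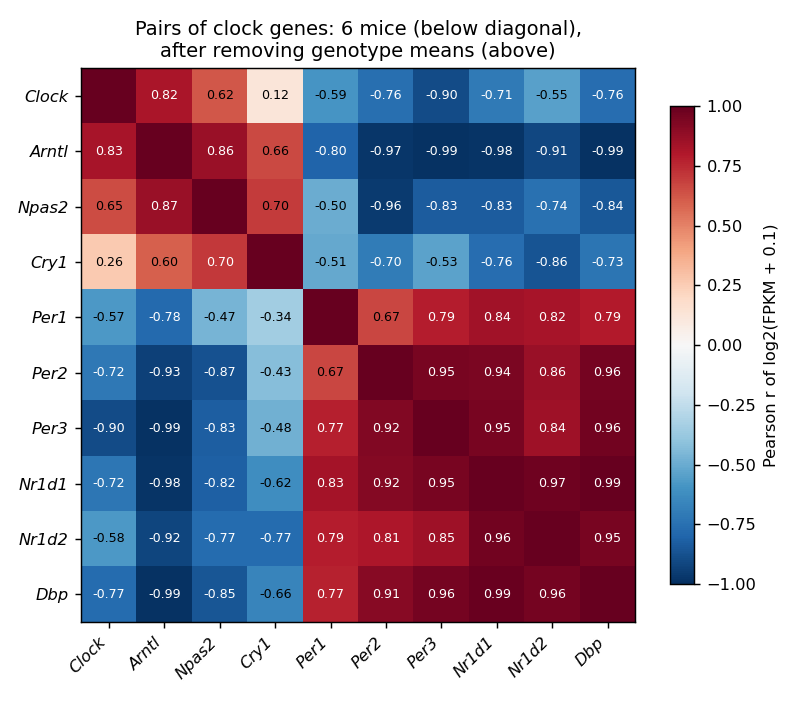
Pearson r of log2(FPKM + 0.1) for the 45 pairs of clock genes, over the 6 mice below the diagonal and after removal of the genotype means above it. Blue cells fill the block between the 3 activators and the 6 negative arm genes, whose r runs from −0.99 to −0.47 below the diagonal, and the r of *Cry1* with the activators runs from 0.26 to 0.70.

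The spread between mice of the same genotype was wide for 8 of the 10 genes. The residual SD within genotype, on the log2(FPKM + 0.1) scale, had a median of 1.04 over the clock genes and of 0.23 over all 10596 genes tested. *Dbp* had the widest at 2.95, above each of the 500 genes nearest to it in mean level. *Per3* (1.15), *Per2* (1.12), *Arntl* (1.09), *Per1* (1.05), *Nr1d1* (1.02), *Nr1d2* (0.79) and *Npas2* (0.69) lay at the 96.4 to 99.2 percentiles of the 500 genes nearest to each. *Clock*, at 0.30, and *Cry1*, at 0.28, lay at the 79.0 and 66.6 percentiles.

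**Figure D4:**
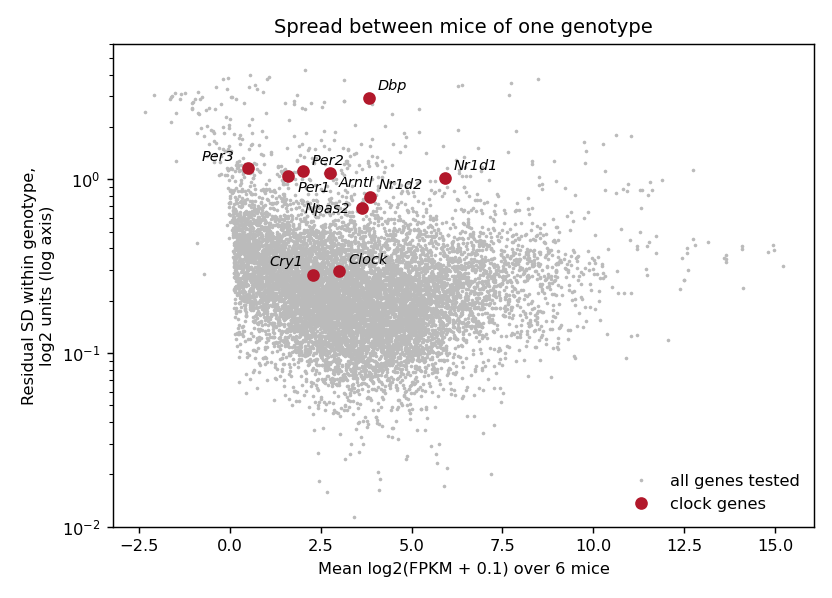
Residual SD within genotype (log axis) against mean log2(FPKM + 0.1) for the 10596 genes tested (gray) and the 10 clock genes (red). *Dbp* has an SD of 2.95, and all clock genes but *Clock* and *Cry1* stand at the upper edge of the genes of like level.

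Against this spread, none of the 10 genes was called lower or higher in *Esrra*-/-. A gene was called at an unadjusted p under 0.05 in limma, in which the variance of each gene borrows from that of all genes, together with a log2 fold change beyond 0.58 in size. Of all genes tested, 4.63% were called, 3.28% lower and 1.35% higher. At an unadjusted p under 0.05 alone, 1 of the 10 clock genes passed, where 10.8% of all genes did, 4.3% higher and 6.49% lower, and no clock gene had an adjusted p under 0.05, where 0.0378% of all genes had (limma, adjusted by Benjamini and Hochberg's method across the 10596 genes). The log2 fold changes of 5 clock genes were above 0 and of 5 below, with a median of 0.05, where the median of all genes was 0.03. Fold changes are of FPKM + 0.1, *Esrra*-/- over WT, and understate the change of low genes.

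The gene that passed the unadjusted threshold was *Cry1*, with a mean of 3.97 ± 0.187 FPKM over the WT mice and of 5.86 ± 1.73 FPKM over the *Esrra*-/- mice (SD, n = 3 each). The fitted difference was 0.51 on the log2 scale (SE 0.21, adjusted p = 0.433 from limma), below the limit of 0.58. All 3 *Esrra*-/- mice lay above all 3 WT mice, which by an exact permutation test, two-sided, gave p = 0.1, the smallest possible with 3 mice of each genotype. Of all genes tested, 8.45% had all *Esrra*-/- mice above all WT mice and 9.14% had all below, or 17.6% together, and *Cry1* was the 1 clock gene among them. The size rested on *Esrra*-/- replicate 2, without which the log2 fold change was 0.29. The unadjusted p was above 0.05 without that mouse, without each WT mouse in turn, with median-ratio scaling and with no filter on low values. The log2 fold change was 0.62 without *Esrra*-/- replicate 1 and 0.64 without *Esrra*-/- replicate 3, both past the limits for a call.

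For the other 9 genes the 95% interval of the difference included 0. *Npas2* had a log2 fold change of 0.44 (95% interval −0.56 to 1.44, limma adjusted p = 0.739), which ran from 0.04 without *Esrra*-/- replicate 2 to 0.83 without WT replicate 2, and *Arntl* one of 0.41 (−1.15 to 1.97, limma adjusted p = 0.850). For *Clock* it was 0.12 (−0.36 to 0.61), with the narrowest interval of the 9. *Per1* stood at −0.01 (−1.53 to 1.51), *Per2* at 0.10 (−1.50 to 1.71) and *Per3* at −0.33 (−2.04 to 1.38). The values were −0.26 (−1.73 to 1.21) for *Nr1d1* and −0.39 (−1.54 to 0.76) for *Nr1d2*. *Dbp* had the largest, −1.26 (−5.44 to 2.92, limma adjusted p = 0.823). Its value turned on 2 mice, since it was 0.69 without *Esrra*-/- replicate 2 and 0.03 without WT replicate 3. *Arntl* (−0.24 and −0.11), *Per3* (0.25 and 0.33), *Per1* (0.46 and 0.32) and *Nr1d1* (0.42 and 0.13) also took the opposite sign without these same mice, in that order, and *Nr1d2* (0.20) did so without *Esrra*-/- replicate 2. With n = 3 mice, a change of the size of the mouse-to-mouse spread was not detectable for these genes.

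**Figure D5:**
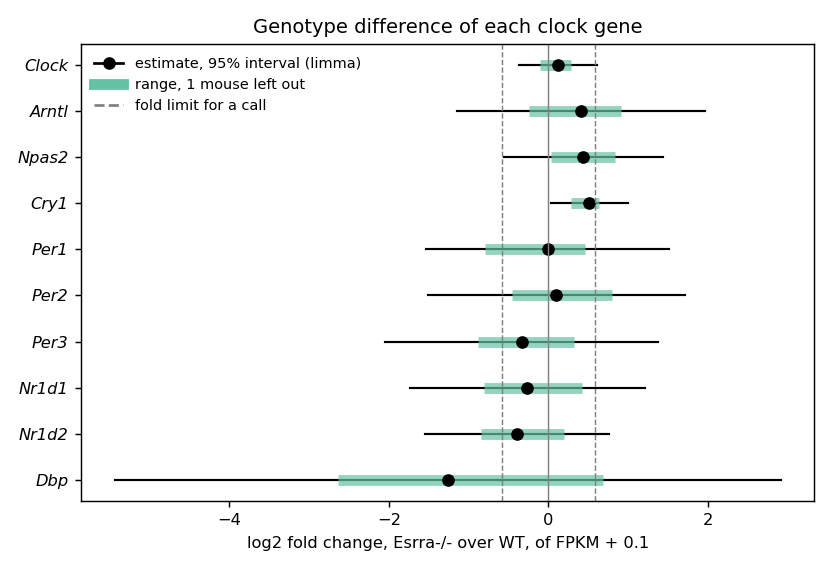
Log2 fold change, *Esrra*-/- over WT, of FPKM + 0.1 for the 10 clock genes, with 95% intervals from limma (lines), the range when each mouse in turn is left out (green bars) and the limits of 0.58 for a call (dashed lines). The interval of *Cry1* alone lies above 0, and that of *Dbp* runs from −5.44 to 2.92.

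Several other genes of the clock loops showed the same order of mice. Of 13 such genes 8 were expressed enough to be tested, and *Arntl2*, *Rora*, *Rorb*, *Bhlhe41* and *Timeless* were not. Genes of this and the next lists that are named for their order of mice were chosen after their values were seen. *Tef*, a PAR bZIP relative of *Dbp*, was at 10.997, 6.26 and 25.3 FPKM in WT and at 13.9, 2.53 and 27.4 FPKM in *Esrra*-/-. *Nfil3*, a repressor at D-boxes that opposes this family, was at 4.33, 6.89 and 1.24 FPKM in WT and at 6.202, 18.6 and 2.501 FPKM in *Esrra*-/-. *Ciart*, listed under its older symbol *Gm129* and encoding a repressor of the ARNTL pair, was at 0.463, 0.263 and 5.47 FPKM in WT and at 0.269, 0.244 and 3.23 FPKM in *Esrra*-/-. *Tef* and *Ciart* were thus highest in replicate 3 of each genotype, as *Dbp* was, and *Nfil3* was highest in replicate 2, as *Arntl* was. Of the 8 genes tested 1 was called, or 12.5%, where 4.63% of all genes were. This was *Tipin*, which encodes a partner of TIMELESS at replication forks. It was at 3.52, 4.44 and 3.32 FPKM in WT and at 1.96, 3.34 and 1.40 FPKM in *Esrra*-/-, a log2 fold change of −0.80 (limma adjusted p = 0.422), with overlap between *Esrra*-/- replicate 2 and WT replicate 3. The 6 crypt markers, among them the proliferation genes *Mki67*, *Top2a* and *Pcna*, were lower on average in *Esrra*-/- in every case (median log2 difference −0.64), and none was called, with 1 at an unadjusted p under 0.05 in limma. The part of crypt cells in the level of *Tipin* was not tested. The median log2 fold change of the 8 genes was −0.16.

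Kinases, ubiquitin ligases and cofactors that act on clock proteins had a median residual SD of 0.17. Of 21 genes 20 were tested and none was called by limma, with 1 at an unadjusted p under 0.05, and their median log2 fold change was 0.10. *Prkaa2*, a catalytic subunit of AMP-activated kinase that did not pass this threshold, was at 3.29 to 3.98 FPKM in WT and 2.503 to 3.21 FPKM in *Esrra*-/-, a log2 fold change of −0.39 (limma adjusted p = 0.464). *Usp2*, a deubiquitinase known to act on clock proteins, varied widely, at 19.4, 11.6 and 40.3 FPKM in WT and at 11.99, 8.71 and 39.5 FPKM in *Esrra*-/-, with a residual SD of 1.03. It had the order of mice of *Dbp*. Of the 20 genes, 3 (*Usp2*, *Csnk2b* and *Hdac3*) had an r with *Dbp* above 0.8, where 7.38% of all genes tested had one, and 2 (*Ncor1* and *Kmt2a*) had one below −0.8, where 3.78% of all genes had.

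Several known outputs of the clock followed *Dbp* across mice. Of 22 such genes tested, of 24 listed, 9 had an r with *Dbp* above 0.8 over the 6 libraries, or 40.9%, where 7.38% of all genes tested had one. They included *Slc5a1*, the sodium-glucose cotransporter of the brush border, at 539, 345 and 840 FPKM in WT and at 419, 207 and 1134 FPKM in *Esrra*-/-. *Slc2a2*, the basolateral glucose transporter, was at 111.5, 48.2 and 138 FPKM in WT and at 156, 38.4 and 183 FPKM in *Esrra*-/-. *Slc15a1*, the peptide transporter, was at 92.9, 111 and 195 FPKM in WT and at 120.1, 74.4 and 249 FPKM in *Esrra*-/-. *Abcb1a*, a drug efflux pump, was at 36.2, 30.5 and 102 FPKM in WT and at 40.9, 29.9 and 116 FPKM in *Esrra*-/-. These 4 transporters were highest in replicate 3 of each genotype, where the sum of the villus markers was highest as well. The part of villus cells in these levels was not tested. The other 5 of the 9 genes were *Slc2a5*, *Noct*, *Wee1*, *Nampt* and *Alas1*. *Slc2a5*, the fructose transporter, was highest in WT replicate 1, at 156 FPKM against 127 FPKM in WT replicate 3. *Slc9a3*, the sodium-proton exchanger of the brush border, was lowest in replicate 3 of each genotype, at 68.6, 44.6 and 20.1 FPKM in WT and at 47.4, 72.9 and 40.03 FPKM in *Esrra*-/-, with an r with *Dbp* of −0.79. An r below −0.8 was found for 1 of the 22 genes, *Leo1*, at −0.87, or 4.55%, where 3.78% of all genes had one. None of the 22 genes was called between the genotypes by limma, 0 of them at an unadjusted p under 0.05, and their median log2 fold change was 0.08. The smallest p belonged to *Cyp2b10*, a drug-metabolising cytochrome P450 (log2 fold change 0.73, limma adjusted p = 0.533), and *Pdk4*, a kinase that inhibits pyruvate dehydrogenase (0.43, limma adjusted p = 0.556).

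The genes whose pattern over the 6 libraries was most like that of *Arntl*, by Pearson r of log2(FPKM + 0.1) among all genes tested, were *Gm11735*, *Asxl1*, *Ifi47*, *Smarcc1* and *Ppargc1b*, with r from 0.98 to 0.99. For *Dbp* they were *Wwox*, *Hmg20b*, *Lin52*, *Rhobtb3* and *Commd5*, with r of 0.99 to 1.00. *Ppargc1b*, which encodes a coactivator of the receptor encoded by *Esrra*, was at 3.63, 4.5995 and 2.97 FPKM in WT and at 3.75, 5.28 and 2.89 FPKM in *Esrra*-/-. *Rhobtb3* was at 3.09, 2.09 and 5.26 FPKM in WT and at 3.39, 1.00 and 5.00 FPKM in *Esrra*-/-. Of all genes tested, 35 had an r above 0.95 with *Arntl* and 53 with *Dbp*.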

How the data were processed

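RNA-seq of the duodenal epithelium was analysed in 3 WT and 3 *Esrra*-/- mice, grouped by the sample titles. The authors' deposited table holds FPKM of 22611 genes in 6 libraries, from reads quantified against mm9, and the submitters' processing notes name FastQC 0.11.3, kallisto 2.1.0 and DESeq2 2.2.1. The annotation is not given in the sources used here. The authors' table of their own comparison (mean counts, fold changes and p-values) was not used. Genes whose mean was above 1 FPKM entered the test, on log2(FPKM + 0.1) with limma 3.58.1 (R 4.3.3), with a mean-variance trend, no covariate and Benjamini-Hochberg adjustment over the 10596 genes. The fit was tested on simulated data. A count test was not run, since the values are FPKM and no counts per library were used here. Correlations used exact permutation tests over the 6 mice, which were added to the design after the data were seen. Gene locations are from GENCODE M1 on NCBIM37 (mm9) and promoter sequences from RefSeq on GRCm38.p6, and no coordinates were moved between builds.

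The members and lists were chosen with earlier results of these data known. Genes named were the 10 members, *Esrra*, *Thra*, the called genes of each list or else the 2 with the smallest p, the 5 genes most like *Arntl* and *Dbp*, and the most abundant marker of each list. Other genes of the lists were named after their values were seen, and some results that the rule covers are not reported here. The alternatives were another pseudocount, 2 other filters, quantile and median-ratio scaling, no trend, the replicate number as a block, a covariate for libraries without Y-linked transcripts (under 1 FPKM) or their removal, each library left out, and other call rules.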

Additional observations from a re-analysis of the deposited data

How the results depend on the processing

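No clock gene had an adjusted p under 0.05 and none was called lower under any of the 15 refits. The count called higher was 1, *Cry1*, with only the 4 libraries that hold Y-linked transcripts, 1 with no limit on the fold change, and 0 to 1 with each library left out. Of 148 refitted values of the clock genes, 126 kept their direction and were not called, as before, 19 changed direction and 3, all of *Cry1*, were called. Among the 126, the unadjusted p of *Cry1* was 0.0505 with median-ratio scaling and 0.0504 with no filter. *Clock* went to −0.044 with only the libraries that hold Y-linked transcripts, and *Per1* to 0.051 with a pseudocount of 1 and to 0.033 with quantile normalization. With each library left out, the log2 fold changes ran from −0.10 to 0.29 for *Clock*, −0.24 to 0.91 for *Arntl*, 0.040 to 0.83 for *Npas2*, 0.29 to 0.64 for *Cry1*, −0.79 to 0.46 for *Per1*, −0.45 to 0.79 for *Per2*, −0.88 to 0.33 for *Per3*, −0.81 to 0.42 for *Nr1d1*, −0.84 to 0.20 for *Nr1d2* and −2.63 to 0.69 for *Dbp*. *Per2* changed direction without *Esrra*-/- replicate 1, *Esrra*-/- replicate 3 or WT replicate 2 (−0.18, −0.31 and −0.45), *Per1* also without *Esrra*-/- replicate 1 (0.31), and *Clock* without WT replicate 3 (−0.10). *Per3* and *Dbp* could not be fitted with FPKM above 1 in all 6 libraries.

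Over all genes, 348 were called lower and 143 higher. These were 528 and 277 with no filter on low values, which tests more genes, 2 and 2 at an adjusted p under 0.05, and 252 to 537 and 146 to 214 with each library left out. The 537 came without *Esrra*-/- replicate 2, and the cause was not tested. With the replicate number as a block they were 441 and 192. The numbers did not meet the rule for pairing, since deviations of same-numbered libraries correlated at 0.01, 0.26 and 0.38 over all genes (−0.22, 0.94 and 0.94 over the 10 clock genes, 9 of which had a smaller residual SD with the block, as had 73.7% of all genes), and replicate 1 of each genotype correlated best with replicate 2 of the other. In the block fit *Npas2*, higher in *Esrra*-/- at each number, had an unadjusted limma p of 0.00334 (adjusted p = 0.102) and *Cry1* one of 0.0352 (adjusted p = 0.206), and no clock gene was called. The depth of each library cannot be read from FPKM, so precision rests on 3 mice of each genotype.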

Other observations

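Immediate early signals and glucocorticoids are known to act on *Per1* apart from the clock loop. Of 19 immediate early genes and glucocorticoid targets 15 were tested, none was called between the genotypes by limma, 0 of them at an unadjusted p under 0.05, and their median log2 fold change was 0.26. The smallest p belonged to *Dusp1*, a phosphatase of MAP kinases, at 2.96 to 4.79 FPKM in WT and 4.83 to 8.37 FPKM in *Esrra*-/- (log2 fold change 0.61, limma adjusted p = 0.471), and to *Ier2* (0.31, limma adjusted p = 0.574). An r with *Dbp* above 0.8 was found for 1 of the 15, or 6.67%, where 7.38% of all genes tested had one. This was *Zfp36*, at 147, 133 and 175 FPKM in WT and at 155, 117 and 182 FPKM in *Esrra*-/-, with the order of mice of *Dbp*. *Fkbp5*, a glucocorticoid target named after its values were seen, was at 1.41, 1.47 and 1.65 FPKM in WT. In *Esrra*-/- it was at 1.04, 1.49 and 5.68 FPKM, so that it stood out in replicate 3. The part of immediate early signals and glucocorticoids in the level of *Per1* was not tested.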
